A study of Sus scrofa with 12 samples.

Results

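Fast-twitch fibres carry their own versions of the proteins that make a muscle contract and relax. In the thick filament these are a fast myosin heavy chain and its light chains, on the thin filament the fast forms of the 3 troponin subunits, and in the sarcoplasmic reticulum the pump ATP2A1 with its calcium-binding partners. Muscles of many mammals go on changing their mix of fast, slow and developmental isoforms after birth.

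The genes followed here are 10 fast fibre contractile and calcium-handling genes (MYH2, MYL1, MYLPF, TNNT3, TNNI2, TNNC2, ATP2A1, ACTN3, CASQ1 and PVALB). Every probe set whose symbol in the probe table was one of them was taken. Of the 10 genes, 7 had a probe set, with 8 probe sets in all among 24123 on the array and 6765 genes with a symbol. ACTN3, CASQ1 and PVALB were not analysed here. The 8 probe sets all passed the filter on dim signals, and ATP2A1 was the gene with 2 of them.

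The tissue was skeletal muscle of newborn and suckling pigs, taken at day 0 (the first 24 hours of life), day 7, day 14 and day 21, with 3 biological replicates and 1 Affymetrix array each, 12 arrays in all. No treatment or genotype set the ages apart. The muscle, breed and sex were not given in the labels used here, and neither was whether each replicate was 1 animal, so p-values measure the spread between these samples. A signal is the MAS5 brightness of a probe set in arbitrary units, comparable between arrays for 1 probe set and not between probe sets.

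The arrays had the same trimmed mean signal (500.1), and their median signal ran from 145.4 to 171.7. Of 10 skeletal muscle markers, 6 had a probe set, none was listed at 0, and their summed signal was 148332 to 186745 at day 0, 162370 to 176261 at day 7, 179848 to 193864 at day 14 and 166243 to 212122 at day 21. Among them TCAP and DES fell by day 7, by 1.26 ± 0.17 and 0.49 ± 0.14 on the log2 scale, where 3.64% of all probe sets tested fell. The changes of 3 of the 6 were above 0 at day 7, and none of these passed. By day 14, 1 of the 6 rose (TTN, by 0.43 ± 0.12) and 2 fell, against 6.74% and 5.6% of all probe sets. By day 21 limma called 0 of the 6, with 5 at an unadjusted p under 0.05. The day 0 arrays had lower hybridization control signals than the later ones, by 0.38 on the log2 scale against day 21, and among the poly-A controls spiked into the RNA, the log2 ratio of 3' to 5' probe sets was 1.59 on day 0 replicate 2 against 0.37 to 0.69 on the other 11 arrays. The number of arrays limits the precision.

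MYH2, the fast myosin heavy chain in the thick filament of oxidative fast fibres, rose in the first week and then showed no further change that passed the test. Its signal at day 0 was 5402, 6748 and 15661 in replicates 1, 2 and 3. At day 7 it was 51913, 49704 and 43922, at day 14 it was 50462, 58335 and 48552, and at day 21 it was 49381, 55234 and 62403. All 9 later arrays lay above all 3 day 0 arrays, and the values of days 7, 14 and 21 overlapped. The spread at day 0 was wide, with replicate 3 well above the other two.

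The log2 change of MYH2 from day 0 to day 7 was 2.54 ± 0.28 (SE, n = 3 arrays per age, here and below), or 5.83-fold, with a limma adjusted p of 0.000982. That change was above 99.6% of all probe sets tested. By day 14 it was 2.66 ± 0.28, or 6.30-fold (adjusted p = 0.000416), and by day 21 it was 2.74 ± 0.28, or 6.68-fold (adjusted p = 0.000482). These 3 comparisons use the same day 0 arrays. Under every other setting tried, including each array left out, the rise by day 7 stayed past the threshold, with a log2 change of at least 2.24 and an adjusted p of at most 0.0210. In whole tissue, more fibres of a type and more RNA per fibre cannot be told apart. In the RefSeq gene order of assembly Sscrofa11.1, MYH2 lies next to MYH1, a fast heavy chain of closely similar sequence, and whether the MYH2 probe set also reads MYH1 RNA was not tested.

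From day 7 to day 14 the log2 change of MYH2 was 0.11 ± 0.28, with a 95% interval from -0.50 to 0.72. From day 14 to day 21 it was 0.08 ± 0.28, with an interval from -0.53 to 0.70. The first week's change exceeded the third week's by 2.46 ± 0.40 on the log2 scale (limma adjusted p = 0.0292), in a test that 0.625% of all probe sets passed in this direction. This call was lost without day 0 replicate 2, without any 1 of the 3 day 7 arrays, without day 14 replicate 2 or 3, without day 21 replicate 1 or 2, with no variance trend, and with the poly-A ratio as a covariate. The difference itself stayed between 2.13 and 2.92. After day 0 the MYH2 signal lay near the top of the array's range, and whether it still grew there in proportion to the RNA was not tested.

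**Figure D1:**
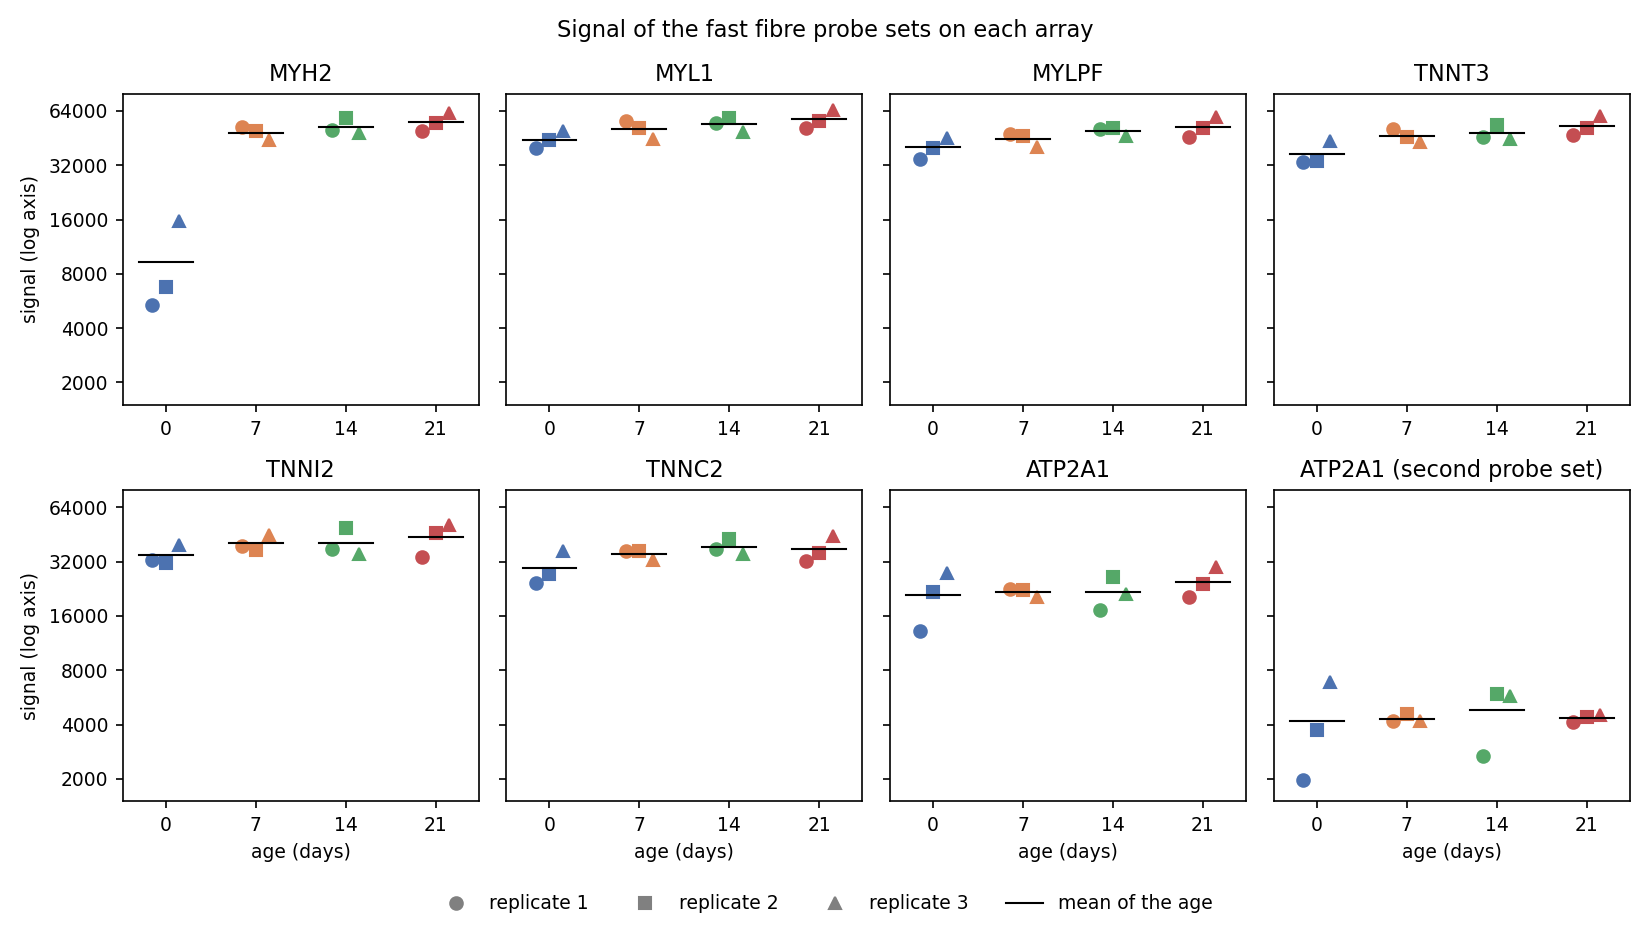
Signal of the 8 probe sets of the 7 measured fast fibre genes on each array (log axis, arbitrary units) against age in days, with 1 point per array shaped by replicate number and a line at the arithmetic mean of the age. MYH2 at day 0 sits at 5402 to 15661, below every later array (43922 to 62403), while the day 0 points of the other genes lie close to their later points.

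The light chains stabilise the lever arm of myosin and tune its movement. MYL1, the fast essential light chain, had signals of 39807, 43942 and 49497 at day 0, 56139, 51332 and 44540 at day 7, 54632, 58841 and 49065 at day 14, and 51792, 56548 and 64734 at day 21. Its day 21 arrays lay above its day 0 arrays, and its day 7 and day 14 arrays overlapped them. The log2 change by day 21 was 0.38 ± 0.13, or 1.30-fold, and did not pass the test (adjusted p = 0.0826).

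MYLPF, the fast regulatory light chain, had signals of 34887, 40108 and 45607 at day 0, 47926, 46437 and 40561 at day 7, 50850, 51314 and 46419 at day 14, and 45822, 51661 and 59471 at day 21. Its day 14 and day 21 arrays lay above its day 0 arrays. The log2 change by day 21 was 0.38 ± 0.13 (1.30-fold, adjusted p = 0.0805).

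Troponin is the calcium switch of the thin filament. TNNT3, the fast subunit that ties troponin to tropomyosin, had signals of 33205, 33593 and 43905 at day 0, 50869, 46160 and 43235 at day 7, 46198, 53411 and 44515 at day 14, and 47052, 51364 and 60154 at day 21. Its day 14 and day 21 arrays lay above its day 0 arrays, and 1 of the day 7 arrays did not. TNNT3 rose by day 21, with a log2 change of 0.52 ± 0.14, or 1.44-fold (limma adjusted p = 0.0297). The changes by day 7, 0.35 ± 0.14, and by day 14, 0.39 ± 0.14, did not pass the test (adjusted p = 0.137 and 0.0875).

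The TNNT3 call at day 21 sat near the threshold. It was lost without day 0 replicate 1 (adjusted p = 0.0803), without day 0 replicate 2 (0.0921), without day 21 replicate 2 (0.0615) and without day 21 replicate 3 (0.123), and under 9 of the other settings tried. With the arrays scaled on the hybridization controls its log2 change was 0.14, and with quantile normalization 0.17.

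TNNI2, the fast inhibitory subunit, had signals of 32666, 31424 and 39808 at day 0, 39102, 37318 and 44880 at day 7, 37401, 49106 and 35170 at day 14, and 33993, 45830 and 51179 at day 21. Its ages overlapped throughout, and its log2 change by day 21 was 0.32 ± 0.17 (adjusted p = 0.246). TNNC2, the fast calcium-binding subunit, had signals of 24420, 27490 and 36743 at day 0, 36715, 36723 and 32655 at day 7, 37723, 42680 and 35324 at day 14, and 32216, 35829 and 44422 at day 21. Its ages overlapped as well, with day 0 replicate 3 among the later values, and its log2 change by day 21 was 0.35 ± 0.16 (adjusted p = 0.178).

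ATP2A1, the fast-muscle pump that returns calcium to the sarcoplasmic reticulum, had signals of 13274, 21706 and 27507 at day 0 on its brighter probe set. At day 7 they were 22451, 22322 and 20404, at day 14 they were 17200, 26408 and 21223, and at day 21 they were 20280, 23932 and 29682. The day 0 arrays spanned nearly the whole range of the later ones, and the log2 change by day 21 was 0.29 ± 0.24, with a 95% interval from -0.22 to 0.80 (adjusted p = 0.469).

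The second ATP2A1 probe set read 1975, 3734 and 6910 at day 0, 4189, 4578 and 4175 at day 7, 2678, 5934 and 5786 at day 14, and 4126, 4388 and 4518 at day 21. The day 0 replicates stood in the same order as on the brighter probe set. Its log2 change by day 21 was 0.23 ± 0.37 (adjusted p = 0.738). Over the 4 ages the limma F test gave adjusted p-values of 0.825 and 0.937 for the pair of probe sets.

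Counted together, 1 of the 7 genes (MYH2) rose by day 7, when 5.76% of the 14399 probe sets tested rose. By day 14 it was again 1 of 7, against 6.74% of all probe sets, and by day 21 it was 2 of 7 (MYH2 and TNNT3), against 6.61%. In the F test over all 4 ages, 1 of 7 passed, against 8.88% of all probe sets. None of the 7 fell at day 7, 14 or 21, where 3.64%, 5.6% and 4.9% of all probe sets did. From day 7 to day 14 and from day 14 to day 21, limma called 0 of the 7, and 0 of the 7 had an unadjusted p under 0.05. Over all probe sets, 0.00694% and 0% were called in those weeks, while 857 and 436 had an unadjusted p under 0.05.

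The later age lay wholly above day 0 for 1 of 7 genes at day 7 (14.9% of all probe sets), for 3 of 7 at day 14 (15.5%) and for 4 of 7 at day 21 (15.3%). The median log2 change of the 7 genes was 0.23 by day 7, 0.31 by day 14 and 0.38 by day 21, where the median of all probe sets was 0.00, 0.02 and 0.02. Without MYH2 the medians of the other 6 were 0.21, 0.30 and 0.36. Day 0 replicate 3 carried much of the overlap. Without it, limma called 2 of the 7 by day 7 (MYH2 and TNNT3), 3 by day 14 (with TNNC2 added) and 5 by day 21 (with MYL1 and MYLPF added). Calls over all probe sets, in either direction, also went up without it, from 1353 to 1669 by day 7, from 1777 to 2036 by day 14 and from 1657 to 2023 by day 21. Day 0 replicate 3 was singled out from these same members' values, so the added member calls are no separate evidence.

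**Figure D2:**
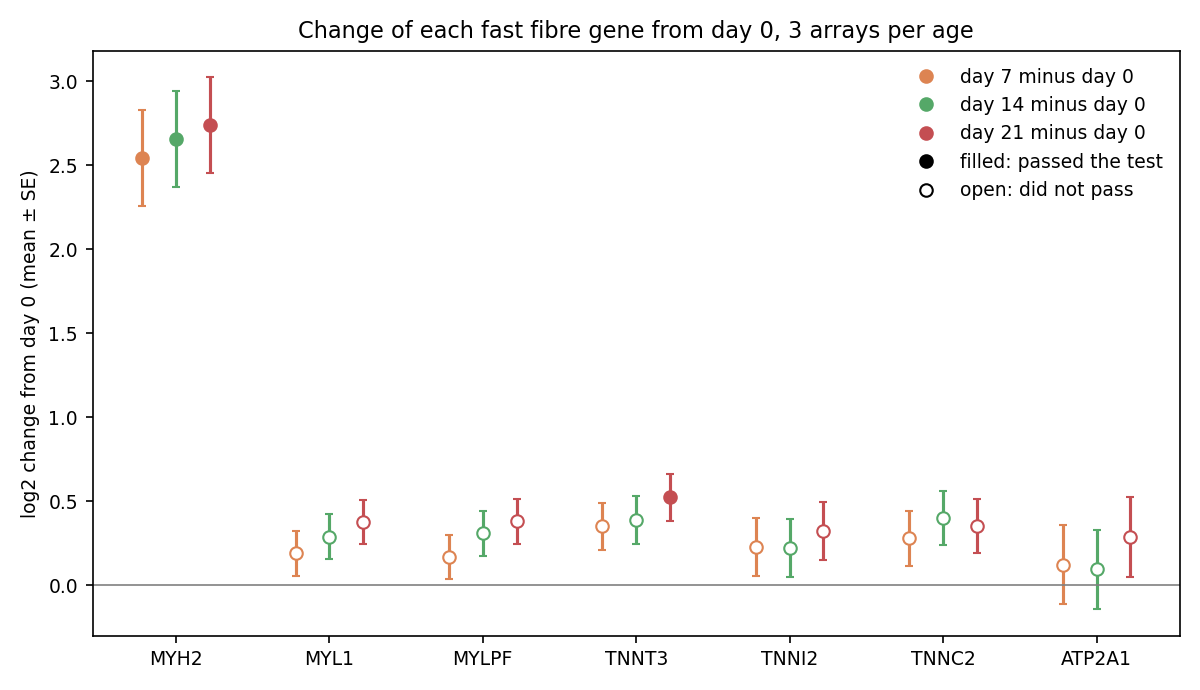
Log2 change of each measured fast fibre gene from day 0 to days 7, 14 and 21 (points are limma estimates over 3 arrays per age, bars are ± 1 SE, filled points passed at an adjusted p under 0.05). MYH2 stands between 2.54 and 2.74, the other 6 genes lie between 0.09 and 0.52, and among those TNNT3 at day 21 is the single filled point.

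The direction of the small changes depended on how the arrays were scaled. Scaling on the hybridization controls, which are added in fixed amounts, lowered every log2 change by 0.31 at day 7, 0.37 at day 14 and 0.38 at day 21, and so the median of all genes with it. Under it the day 21 change was 2.36 for MYH2, 0.14 for TNNT3, 0.00060 for MYLPF and below 0 for MYL1 (-0.0030), TNNC2 (-0.028), TNNI2 (-0.058) and ATP2A1 (-0.092). Centring on the array median lowered the day 21 changes by 0.11, and the 7 genes all stayed above 0 there, as they did with quantile normalization, where MYLPF was at 0.0026 and TNNI2 at 0.0049. MYH2 stayed between 2.36 and 2.74 over the 5 scalings at day 21.

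**Figure D3:**
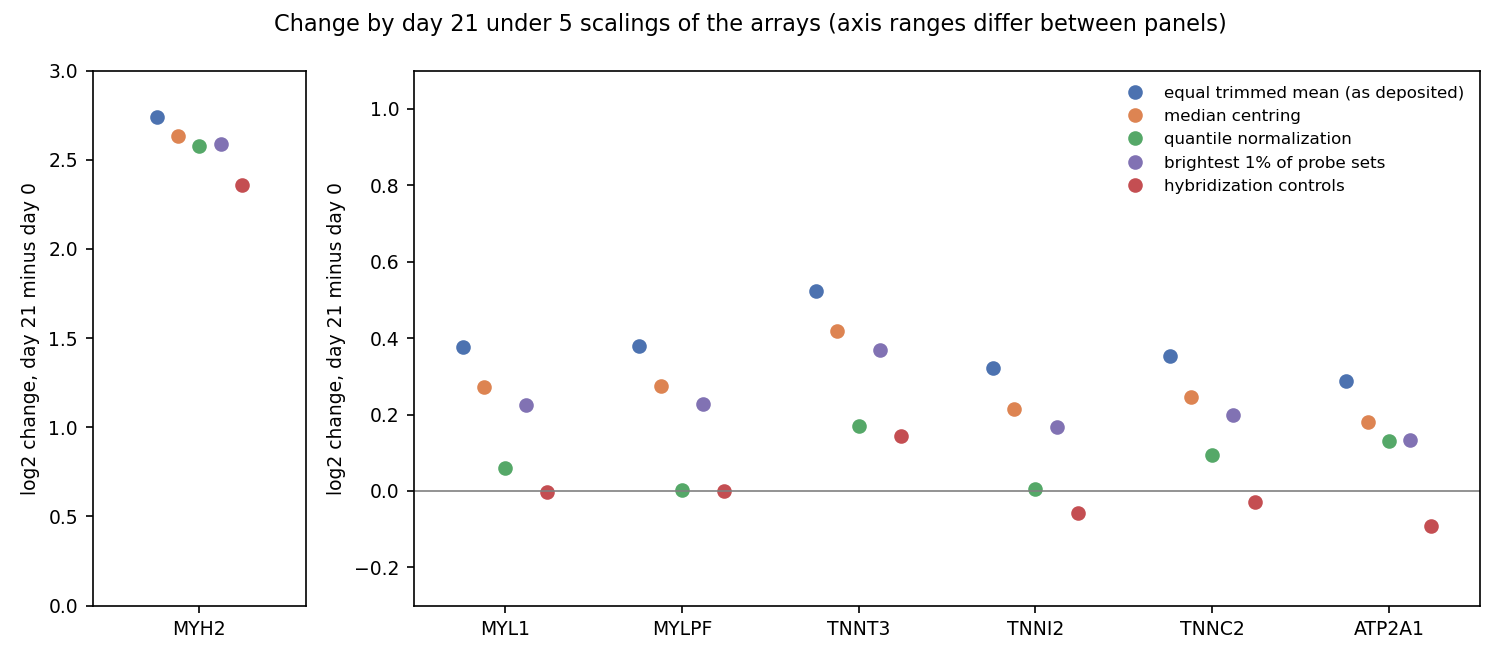
Log2 change from day 0 to day 21 under 5 ways of scaling the arrays, with MYH2 in a panel of its own because its axis range differs. MYH2 keeps a change of 2.36 or more under each, whereas 4 of the other 6 genes fall below 0 when the arrays are scaled on the hybridization controls.

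The signals lay high in the range of the arrays. MYL1 reached 79.8% to 91.7% of the highest signal on its own array at every age, while MYH2 went from 11.9% to 26.4% at day 0 to between 76.1% and 87.3% later. Over the 12 arrays the log2 signal of all 7 genes followed the median of the brightest 1% of probe sets. Pearson r ran from 0.63 for MYH2 and 0.64 for TNNI2 to 0.91 for MYLPF. After each age's mean was taken out, the 21 pairs among the 7 genes correlated with r from 0.54 (MYH2 with TNNI2) to 0.96 (TNNT3 with TNNC2). Those points share an array, its labelling and its scaling. Whether signals this near the top of the range still grow in proportion to the RNA was not tested.

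The ratio of a fast gene to its slow fibre counterpart within 1 array does not depend on the array's scaling factor. It does depend on both signals growing in proportion to the RNA, which was not tested near the top of the range. The 7 pairs were tested by an exact permutation test over all 369600 ways to assign the 12 arrays to 4 ages. Its statistic was the sum of squares between the ages. Each exact p below thus covers any difference among the 4 ages, in no set direction, and not the day 21 change alone. The smallest possible p is 6.49e-05, and p-values were Benjamini-Hochberg adjusted over the 7. Ratios are given below as log2 relative to the mean of the 3 day 0 arrays, so they show change and not which of the pair was more abundant.

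MYH2 rose against MYH7, the slow heavy chain. The log2 ratio was -0.35, -0.13 and 0.48 at day 0, 2.24, 2.16 and 2.27 at day 7, 1.68, 2.45 and 1.87 at day 14, and 2.01, 1.87 and 2.07 at day 21. All 9 later arrays lay above day 0 (exact permutation p = 0.00812, adjusted 0.0284). The mean change by day 21 was 1.98 ± 0.24, a 3.96-fold rise of MYH2 relative to MYH7. MYH7 itself rose by day 21, by 0.76 ± 0.19 (limma adjusted p = 0.0228), from 18541, 19922 and 30194 at day 0 to 32930, 40622 and 40080.

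MYLPF fell against MYL2, the slow regulatory light chain. The log2 ratio was -0.04, 0.27 and -0.23 at day 0, -0.33, -0.53 and -0.41 at day 7, -0.79, -0.41 and -0.76 at day 14, and -0.67, -0.66 and -0.57 at day 21. All 9 later arrays lay below day 0 (exact permutation p = 0.00331, adjusted 0.0232). The mean change by day 21 was -0.63 ± 0.14, or 1.55-fold lower, and MYL2 rose over the same interval by 1.01 ± 0.17 (limma adjusted p = 0.00363).

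The other 5 ratios were lower at day 21 than at day 0 and did not pass the test. The mean change was -0.85 ± 0.30 for TNNT3 over TNNT1 (exact permutation p = 0.0742, adjusted 0.121) and -0.76 ± 0.28 for TNNC2 over TNNC1 (p = 0.0864, adjusted 0.121, same test). For ATP2A1 over ATP2A2 it was -0.49 ± 0.24 (exact p = 0.0786, adjusted 0.121), for TNNI2 over TNNI1 -0.65 ± 0.38 (exact p = 0.211, adjusted 0.224) and for MYL1 over MYL3 -0.38 ± 0.20 (exact p = 0.224, adjusted 0.224). ATP2A1 over ATP2A2 lay below day 0 on all 9 later arrays. With the mean of all probe sets of each gene in place of the brightest, that ratio changed by 0.18 instead of -0.49 by day 21 (adjusted p = 0.688), so its direction is not settled.

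Day 14 replicate 2 stood apart in these ratios. TNNT3 over TNNT1 read -1.23, -0.01 and -1.07 on the 3 day 14 arrays, and TNNI2 over TNNI1 read -1.08, 0.34 and -0.80. The slow genes were lower on that array, with TNNT1 at 40150, 19916 and 34499 and TNNC1 at 31832, 18038 and 27935 in replicates 1, 2 and 3. Without it, all 7 ratios passed the exact permutation test, with adjusted p-values of 0.0236 for MYL1, 0.00242 for TNNT3, 0.0205 for TNNI2, 0.0172 for TNNC2 and 0.0177 for ATP2A1 against their slow counterparts. That array was singled out from these same ratios, so these passes are no separate evidence. With any other array left out, or under any other setting tried, the ratios of MYL1, TNNT3, TNNI2, TNNC2 and ATP2A1 did not pass.

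**Figure D4:**
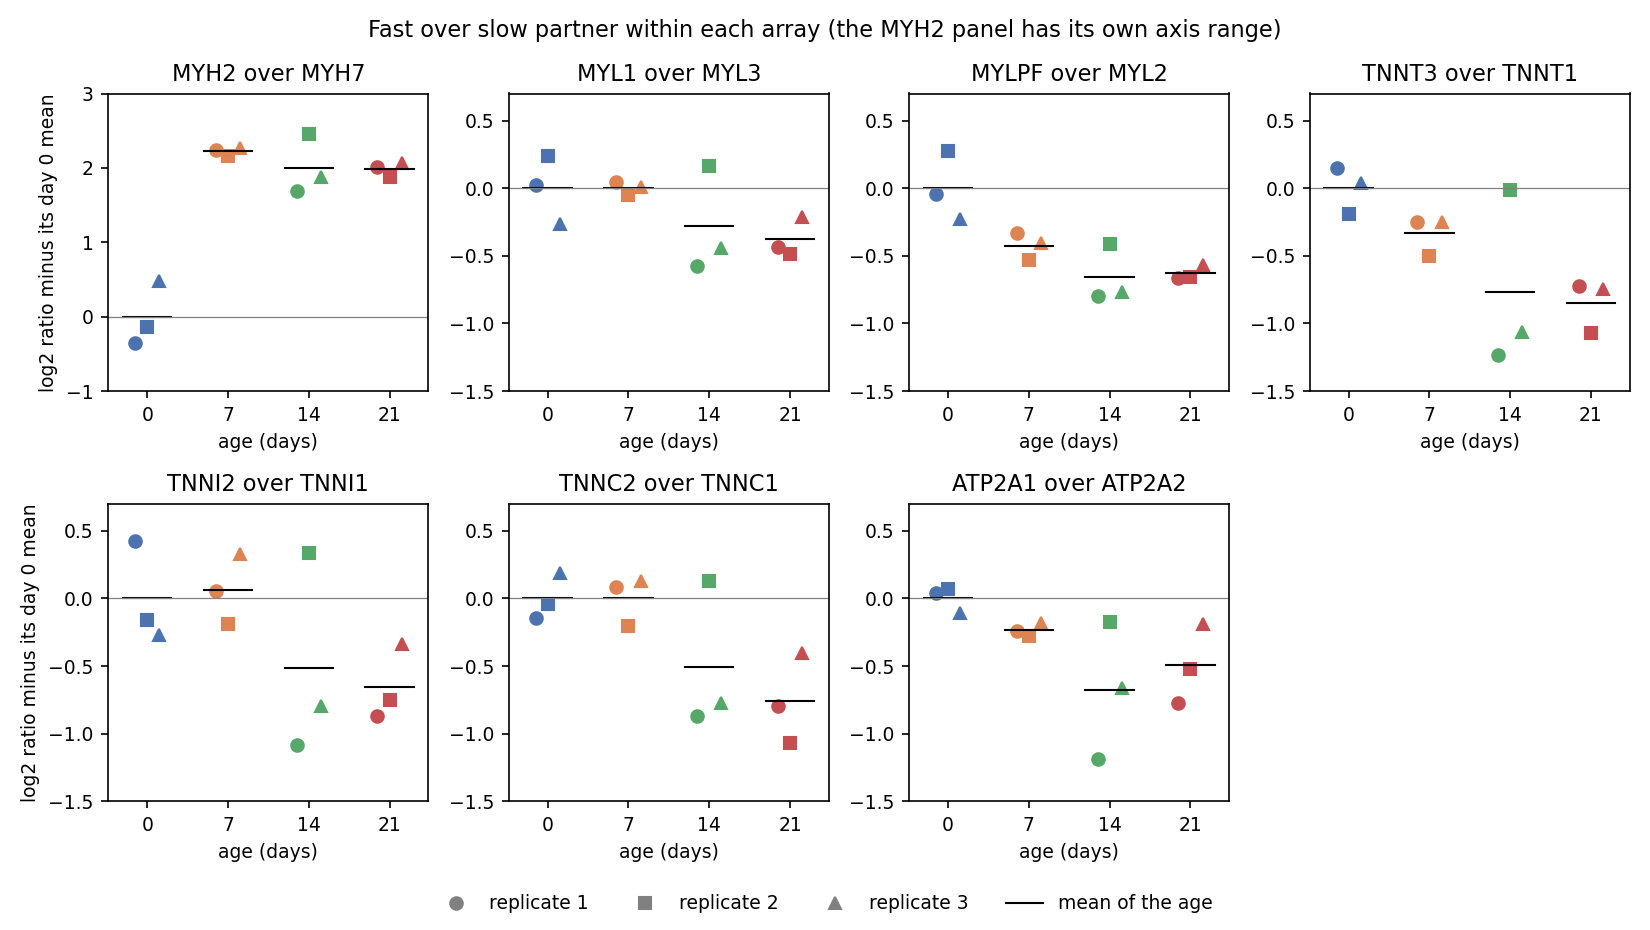
Log2 ratio of 7 fast genes to their slow counterparts on each array, minus the mean of the 3 day 0 arrays, against age in days (1 point per array shaped by replicate number, lines are age means, and the MYH2 panel has its own axis range). MYH2 over MYH7 rises by 1.98 by day 21 while the other 6 ratios end between -0.38 and -0.85, with day 14 replicate 2 nearer to the day 0 level in most panels.

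Other genes rich in fast fibres were read from a list of 15, of which 10 were tested. By day 7, 5 of the 10 rose, and by day 21 it was 8 of 10, against 6.51% and 7.36% of the 5296 genes tested (1 probe set per gene). None fell, and their median log2 change by day 21 was 1.33. With the poly-A ratio as a covariate, 1 of 10 rose by day 7 and 6 by day 21, and without day 0 replicate 3, 8 rose by day 7 and 10 by day 21. With only the ages compared in the fit, 5 rose by day 21, and over all 25 alternatives between 5 and 10 of the 10 did.

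The 4 of them with the lowest F test p were enzymes of energy supply. AMPD1, the muscle AMP deaminase, had signals of 6765 to 9570 at day 0 and 18781 to 27822 later, and rose by 1.55 ± 0.18 by day 21 (limma adjusted p = 0.000584). PGAM2, the muscle phosphoglycerate mutase, rose by 1.22 ± 0.17, and PYGM, the glycogen phosphorylase of muscle, by 1.44 ± 0.24. GPD1, the cytosolic glycerol-3-phosphate dehydrogenase, rose by 2.87 ± 0.42, from 1067, 1118 and 4640 at day 0 to 14675, 10716 and 13640 at day 21. On GPD1 and PYGM, as on MYH2, day 0 replicate 3 was the highest of the 3 day 0 arrays and stayed below every later array.

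Of 12 slow fibre counterparts, 11 were tested. By day 7, 1 rose (MYL2), against 6.51% of all genes. By day 21, 7 rose and 1 fell, against 7.36% and 7.1% of all genes. In 19 of 25 alternatives no slow gene rose by day 7, and without day 0 replicate 3 it was 3. TNNT1 rose by 1.37 ± 0.23 and TNNC1 by 1.11 ± 0.20, and CASQ2, the cardiac and slow-muscle calcium store protein, fell by 1.90 ± 0.40 (limma adjusted p = 0.00344, 0.00517 and 0.00912). The count of slow genes that rose by day 21 was 3 with the hybridization control scaling (where 2 fell), the poly-A covariate, no variance trend or only the ages compared. It was also 3 without day 0 replicate 1, day 0 replicate 2, day 21 replicate 2 or day 21 replicate 3, and 4 without day 21 replicate 1.

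Among 16 calcium-handling genes that work beside ATP2A1, 6 were tested and 3 rose by day 21, against 7.36% of all genes. CALM2, which encodes calmodulin, rose by 1.30 ± 0.17, RYR1, the calcium release channel, by 0.90 ± 0.19, and SLN, a small inhibitor of the pump, by 0.54 ± 0.13 (limma adjusted p = 0.00104, 0.00872 and 0.0175). PLN, another pump inhibitor, changed by 0.92 ± 0.43 (adjusted p = 0.183). The count was 2 in 8 of 25 alternatives, namely no filter, quantile normalization, hybridization control scaling, no variance trend, the poly-A covariate, only the ages compared, and without day 0 replicate 2 or day 21 replicate 3.

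Among 17 regulators tied to the fast programme, 6 were tested and 1 rose by day 21, against 7.36% of all genes. That was MEF2A, a transcription factor of muscle genes, with 0.68 ± 0.15 (limma adjusted p = 0.0109). SIX4, a homeobox factor of fast genes, changed by 0.42 ± 0.26, PPARGC1A, a coactivator of oxidative fibres, by -0.75 ± 0.36 and MYOD1, a myogenic factor, by 0.41 ± 0.26 (adjusted p = 0.306, 0.197 and 0.329). Of 6 developmental sarcomere genes 3 were tested. ACTC1, cardiac actin, fell by 1.24 ± 0.22 by day 21 and MYL4, the embryonic light chain, rose by 1.17 ± 0.21 (adjusted p = 0.00423 and 0.00494). TNNT2, cardiac troponin T, rose at day 7 by 2.41 ± 0.57 and was 0.76 ± 0.57 above day 0 at day 21 (adjusted p = 0.0213 and 0.417). Both MYL4 and TNNT2 were dim. TNNT2 read 91, 105 and 170 at day 0, near the filter's limit of 90.3, and 409, 1088 and 547 at day 7. MYL4 read 240, 175 and 230 at day 0 and 576, 389 and 496 at day 21.

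Markers of other cells were read beside these results. Over the 5296 genes tested (1 probe set per gene), 7.36% rose and 7.1% fell by day 21. Of 9 endothelial markers, all tested, 3 rose and 1 fell by day 7, the interval in which MYH2 rose, against 5.76% and 3.64% of all probe sets. By day 21, 3 rose and 1 fell as well. Their summed signal, in which the brighter probe sets weigh most, was 5578 to 6462 at day 0 and 9237 to 10378 at day 7. At days 14 and 21 it was 8981 to 9874 and 6677 to 10043. Of 8 fibroblast markers 6 were tested and limma called 0 by day 21 (1 at an unadjusted p under 0.05), with sums of 19233 to 40368 at day 0 and 17289 to 44915 at day 21. Of 11 macrophage markers 8 were tested and 1 rose by day 21 (LAPTM5). Their sums were 2180 to 3034 at day 0 and 3065 to 4720 at day 7. At days 14 and 21 they were 3088 to 6379 and 2258 to 4516. Of 7 adipocyte markers 3 were tested and limma called 0 by day 21 (also 0 at an unadjusted p under 0.05). Of 6 erythroid markers 4 were tested, 2 rose (ALAS2 and HBM) and 1 fell (HBB) by day 21. The erythroid sums were 1687 to 2845 at day 0, 1362 to 1566 at day 7 and 1987 to 2916 at day 21. At day 7 the fibroblast sums (26038 to 39504) and the adipocyte sums (5301 to 9928) overlapped those of day 0. No marker was listed at 0, and the part of these cells in the change of MYH2 was not tested.

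Likeness to the fast genes was taken as Pearson r of log2 signal over the 12 arrays among 5289 other genes, whose median r was -0.03 with the members' mean and -0.04 with MYH2. The 5 genes most like the mean of the 7 centred members were GYG1 (r = 0.984), which encodes the glycogen primer glycogenin, PGM1 (0.973), a phosphoglucomutase, UBE2D4 (0.970), a ubiquitin-conjugating enzyme, TTN (0.970), the giant spring protein titin, and PYGM (0.968). The members were centred and not scaled, so MYH2, with by far the largest changes, weighed most in their mean. PGM1 read 9243, 11493 and 22191 at day 0 and 27965 to 39427 later. The 5 most like MYH2 were CALM2 (r = 0.990), EGF (0.988), a growth factor, GPI (0.983) and LDHA (0.977), enzymes of glycolysis, and PYGM (0.983). GPI read 4320, 6268 and 13029 at day 0 and 22868 to 38516 later, with day 0 replicate 3 the highest of its age, as for MYH2. The points of each r share the array and its scaling.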

How the data were processed

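Frozen muscle gave total RNA by Trizol, of which 6 ug went into biotinylated cRNA (per the labels' protocols). The authors deposited MAS5 intensity signals on a linear scale; MAS5 is named, with no version, per the submitters' processing notes. Their log2 was analysed without normalizing again. Of 24123 probe sets, 124 controls and the dimmest 40% of the rest (mean signal under 90.3) were left out, leaving 14399. The probe table supplied gene symbols (10099 probe sets with 1 symbol, 198 with several, 13826 with none); 9989 were matched by Entrez identifier to the RefSeq table of Sscrofa11.1, which changed 0 symbols. A gene was read by its brightest tested probe set.

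A mean per age was fitted over the 12 arrays in limma 3.58.1 (R 4.3.3) with eBayes and a variance trend, and p-values were Benjamini-Hochberg adjusted over all probe sets (threshold 0.05). Ratios were tested with exact permutation (scipy 1.17.1, numpy 2.4.6, pandas 2.3.3), and figures drawn with matplotlib 3.10.9. The tests were tested on simulated data.

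The members and lists were chosen with earlier results of these data known. All members were named, plus up to 4 tested genes per other list in order of F test p and the 5 genes most like the members' mean and MYH2; list genes beyond that rule were named after their values were seen. The labels' replicate numbers did not pair arrays: same-numbered arrays of different ages had deviations correlated from -0.198 to 0.112, with 2 of 18 above 0.1.

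Alternatives were no filter, a 60% filter, quantile normalization, median centring, hybridization control scaling (27 probe sets), an offset (the 20th percentile, 29.7), no variance trend, array weights, a replicate block, a poly-A covariate, only the ages compared, averaging each gene's probe sets, and leaving out each array. Centring on the brightest 1% of probe sets (240) was chosen after seeing the data.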

Additional observations from a re-analysis of the deposited data

Results flagged for a closer look

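The change of MYH2 differed between weeks by a test of the difference itself. The first week's log2 change (2.54) exceeded the third week's (0.08) by 2.46 ± 0.40 (limma adjusted p = 0.0292). Fitted with the poly-A covariate it came to 2.13 (adjusted p = 0.171), and with no variance trend the adjusted p was 0.0696. From day 7 on, MYH2 read 76.1% to 87.3% of the highest signal on its array. Whether signals that high still follow the RNA in proportion was not tested.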

How the results depend on the processing

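The rise of MYH2 by days 7, 14 and 21 kept its direction and its side of the threshold in all 25 settings of each comparison; the smaller changes did not. The count of members called by day 21 was 1 in place of 2 with no filter, quantile normalization, median centring, hybridization control scaling, no variance trend, array weights, the replicate block, the poly-A covariate and only the ages compared, and 1 to 5 with each array left out. By day 14 it was 2 with centring on the brightest 1% of probe sets, and 1 to 3 with an array left out. With an array left out it was 1 to 2 by day 7 and in the F test. For the first against the third week it was 0 under either the poly-A covariate or no variance trend, and 0 to 1 with an array left out.

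Hybridization control scaling turned the day 7 changes of ATP2A1 (-0.18), MYL1 (-0.12), MYLPF (-0.14), TNNC2 (-0.028) and TNNI2 (-0.080), the day 14 changes of ATP2A1 (-0.27), MYL1 (-0.078), MYLPF (-0.058) and TNNI2 (-0.15), and the day 21 changes of ATP2A1 (-0.092), MYL1 (-0.0030), TNNC2 (-0.028) and TNNI2 (-0.058) below 0, by its construction, since it lowers every change alike. Quantile normalization did so for MYL1 (-0.028) and MYLPF (-0.049) at day 7 and for ATP2A1 (-0.0044) and TNNI2 (-0.045) at day 14, for which the cause was not tested. Median centring, which also lowers every change alike, by 0.12 at day 14, did so for ATP2A1 (-0.023). With an array left out, ATP2A1 ran from -0.17 to 0.35 at day 7, -0.20 to 0.33 at day 14 and -0.0060 to 0.52 at day 21, the lowest without day 0 replicate 1, and was -0.06 at day 14 without day 14 replicate 2. MYH2 from day 14 to day 21 ran from -0.0016 (without day 21 replicate 3) to 0.17.

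With the replicate block, by which arrays share only a number, the ratios MYH2 over MYH7 (1.98) and MYLPF over MYL2 (-0.63) had an adjusted p of 0.109. TNNT3 at day 21 had 0.0511, and no other member's call moved. ATP2A1 over ATP2A2 was 0.18 with the mean of the probe sets. With an array left out the day 21 ratios ran from 1.81 to 2.23 for MYH2, -0.51 to -0.26 for MYL1, -0.75 to -0.49 for MYLPF, -0.94 to -0.73 for TNNT3, -0.81 to -0.44 for TNNI2, -0.93 to -0.60 for TNNC2 and -0.65 to -0.35 for ATP2A1. All 8 member probe sets lay far above the filter's limit, and 3 arrays per age limit the precision.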
